A study of Mus musculus with 27 samples.

Results

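The genes described here are 9 genes of the complement system in mouse brain, chosen by symbol as C3, C4b, C2, Cfb, Serping1, C3ar1, C5ar1, Itgam and Itgb2 from the GENCODE M21 annotation of GRCm38. Each symbol matched 1 row of a table of 55487 genes, and all 9 were among the 20271 genes that entered the tests, for which 4 or more libraries had to hold 10 or more counts. RNA-seq was performed on pieces of contralateral hippocampus and cortex from male wild-type C57Bl/6J mice, aged 8 weeks at the start, whose right lateral ventricle was infused by an implanted osmotic pump for 14 days at 0.25 μl per hour. The pumps delivered α-IgLON5#1, autoantibodies purified from patient plasma, a control IgG (pCtrl), or PBS, so the control mice carried the same cannula and pump. The study's text describes pCtrl as serum IgG of a healthy person and the labels describe a human monoclonal IgG, so the nature of the control antibody is left as these sources give it. The groups were PBS (n = 5 hippocampi and 5 cortices), pCtrl (n = 4 hippocampi and 5 cortices) and α-IgLON5#1 (n = 4 hippocampi and 4 cortices), in 27 libraries. The number in a library's title was taken as the number of the mouse, and 13 mice gave both tissues.

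Complement is a cascade of plasma and tissue proteins that tags surfaces for removal. C1q bound to antibody or to other ligands starts the classical pathway, in which the proteases C1r and C1s cut C4 and C2. The C4 and C2 fragments together form an enzyme that cuts C3, and factor B takes the place of C2 in the alternative pathway. Deposited C3 fragments are read by complement receptor 3 on microglia and other myeloid cells, an integrin made of the αM chain (Itgam, also known as CD11b) and the β2 chain (Itgb2, CD18). The small fragments released from C3 and C5 signal through the receptors C3aR (C3ar1) and C5aR1 (C5ar1), and the C1 inhibitor (Serping1) blocks C1r and C1s. In the brain, astrocytes and microglia produce many of these components, and complement tagging is known for its part in the removal of synapses during development.

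Total counts ran from 19385642 to 58550621 per library. The α-IgLON5#1 hippocampi (19428512 to 32776892) were all shallower than the pCtrl hippocampi (39479753 to 52212204), and the part of depth in the hippocampal results was not tested beyond the scaling to library size. The labels name the cell type as neurons, but the transcripts were those of whole tissue. The summed level of 10 neuronal markers ran from 7085 to 10382 CPM (counts per 1000000 of a library's TMM effective size) over all groups, beside 4498 to 7003 CPM for 10 homeostatic astrocyte markers, 1788 to 4863 CPM for 10 oligodendrocyte markers and 255 to 568 CPM for 10 homeostatic microglia markers. In such tissue samples, fewer cells of a type and less RNA per cell cannot be told apart, and the same holds for more cells and more RNA per cell.

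Of the 9 complement transcripts, 6 rose and 0 fell in the hippocampus of α-IgLON5#1 mice relative to pCtrl mice. These were C3, C4b, C3ar1, C5ar1, Itgam and Itgb2, and they were called DEGs (adjusted p below 0.05, more than 2-fold), as were 2.21% of all tested genes in the upward and 0.237% in the downward direction. The same 6 rose and 0 fell in the other comparisons, in which all genes were called up and down at 2.56% and 0.109% (hippocampus over PBS), 2.14% and 0.0247% (cortex over pCtrl) and 2.24% and 0.00493% (cortex over PBS). The α-IgLON5#1 libraries lay above all control libraries for 6 of the 9 in the hippocampus over pCtrl (6.68% of all genes), over PBS (4.49%) and in the cortex over pCtrl (3.68%), and for 7 of the 9 in the cortex over PBS (3.14%). C2, Cfb and Serping1 were not called in any of these 4 comparisons. The median log2 fold change of the 9 transcripts over pCtrl was 1.42 in the hippocampus and 1.24 in the cortex, beside medians of all tested genes of 0.0012 and -0.0066. With only mice numbered 8 to 17, the range that holds the α-IgLON5#1 mice, 2 pCtrl hippocampi and 3 pCtrl cortices remained. Then 8 of the 9 could be tested (all but Cfb), and 2 (C3 and Itgb2) were called in the hippocampus and 1 (C3) in the cortex. Over all genes, 496 DEGs over pCtrl became 48 in the hippocampus, and 438 became 9 in the cortex. C4b, C3ar1, C5ar1 and Itgam were then called in neither tissue, with log2 fold changes of 1.07 to 2.59. The comparisons with pCtrl and with PBS share the α-IgLON5#1 libraries and are not independent of each other. By the mouse numbers, the α-IgLON5#1 hippocampi and cortices came from the same mice, so the tissues are not independent of each other either. Adjusted p-values are those of edgeR (quasi-likelihood test, Benjamini-Hochberg over all tested genes) and measure only the spread between libraries.

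**Figure D1:**
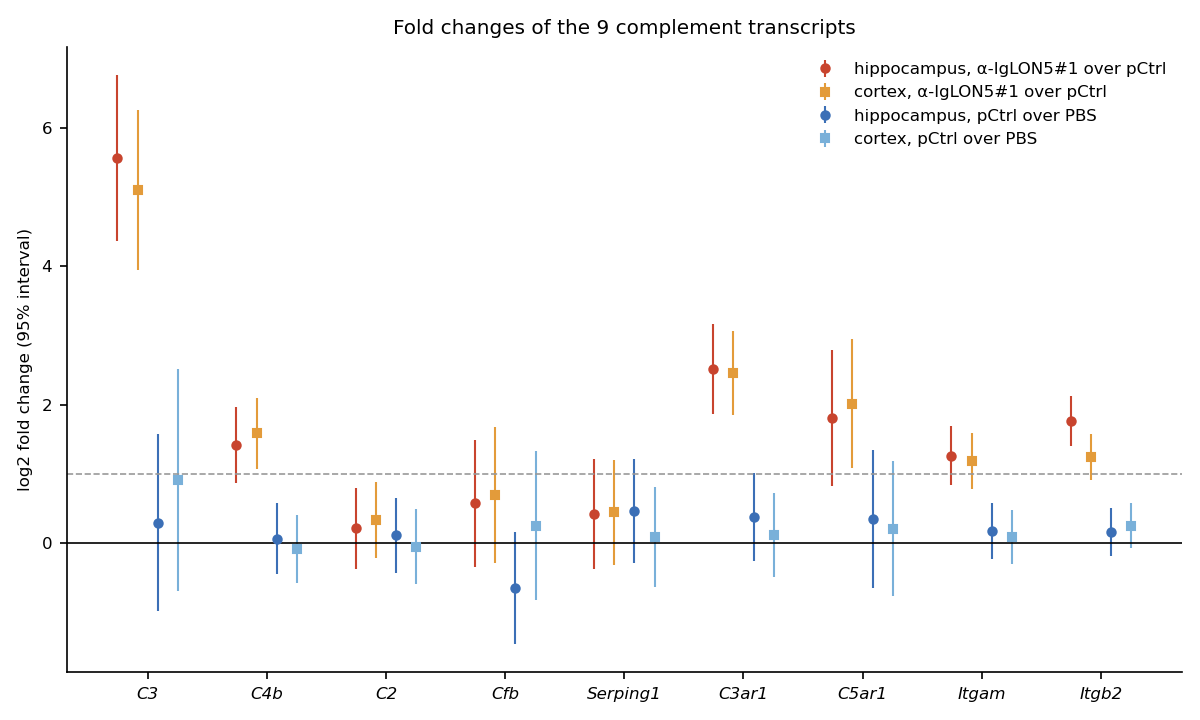
Log2 fold changes of the 9 complement transcripts (x axis) with 95% intervals from edgeR (y axis), for α-IgLON5#1 over pCtrl (red circles hippocampus, orange squares cortex) and pCtrl over PBS (dark blue circles hippocampus, light blue squares cortex). The dashed line marks a fold change of 2. C3 stands at 5.56 and 5.10 over pCtrl, C2, Cfb and Serping1 lie below the dashed line, and the intervals of pCtrl over PBS all contain 0.

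Between the controls, no such changes were detected. In pCtrl against PBS hippocampi, 0 of the 9 transcripts were called, and among all genes 0.0493% went up and 0.0148% down. In the cortex 0 of the 9 were called, and 0% of all genes. At an unadjusted p under 0.05, 0 of the 9 passed with edgeR in either tissue (14.0% of all genes in the hippocampus and 8.14% in the cortex), and DESeq2 called 0 as well. The smallest adjusted p of the 9 was 0.489 in the hippocampus and 0.715 in the cortex. The log2 differences between pCtrl and PBS reached 0.91 for cortical C3 (95% interval -0.69 to 2.51) and -0.65 for hippocampal Cfb (-1.46 to 0.16), so that differences of this size in either control could have gone undetected.

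**Figure D2:**
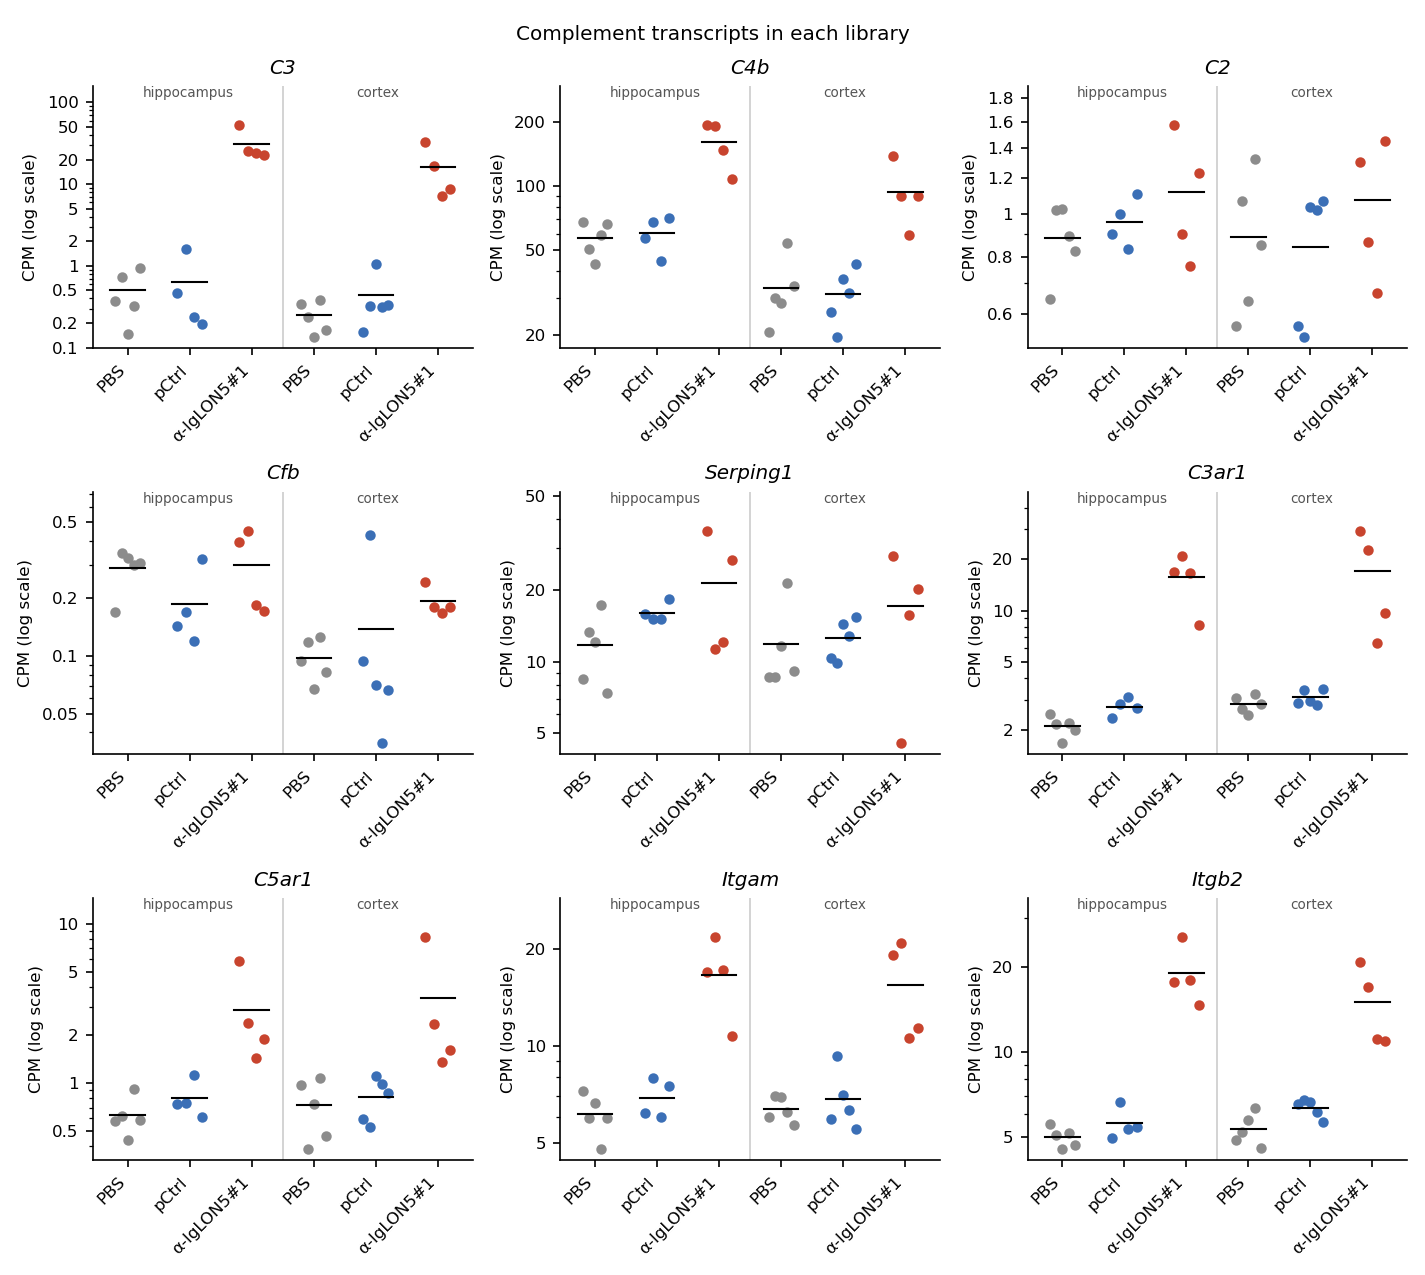
CPM of each complement transcript (y axis, log scale) in the 27 libraries, by tissue and treatment (x axis: PBS grey, pCtrl blue, α-IgLON5#1 red). Points are libraries and bars are group means. All α-IgLON5#1 points lie above all pCtrl and PBS points of their tissue for C3, C4b, C3ar1, C5ar1, Itgam and Itgb2, and the groups overlap for C2 and Serping1.

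The regions around the transcription start were available from RefSeq (GRCm38.p6, 250 bases before to 50 bases after the start) for 4 of the 6 transcripts that rose, C3, C3ar1, C5ar1 and Itgam. They are shown in transcript direction because these genes rose together, and they were searched on both strands for 4 patterns, namely the GAS form TTCNNNGAA, an NF-κB form (GGG, any 5 bases, CC), an ISRE core (GAAA repeated after any 2 bases) and the PU.1 core GAGGAA. Capitals mark the matches, and overlapping matches run together.
C3 (chr17:57228087-57228386, minus strand): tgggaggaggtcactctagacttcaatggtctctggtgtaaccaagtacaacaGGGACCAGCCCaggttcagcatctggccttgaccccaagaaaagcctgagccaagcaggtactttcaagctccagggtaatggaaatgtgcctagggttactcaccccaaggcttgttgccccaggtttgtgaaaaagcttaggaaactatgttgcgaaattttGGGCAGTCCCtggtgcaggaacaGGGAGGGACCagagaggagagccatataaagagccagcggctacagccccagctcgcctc
C3ar1 (chr6:122856108-122856407, minus strand): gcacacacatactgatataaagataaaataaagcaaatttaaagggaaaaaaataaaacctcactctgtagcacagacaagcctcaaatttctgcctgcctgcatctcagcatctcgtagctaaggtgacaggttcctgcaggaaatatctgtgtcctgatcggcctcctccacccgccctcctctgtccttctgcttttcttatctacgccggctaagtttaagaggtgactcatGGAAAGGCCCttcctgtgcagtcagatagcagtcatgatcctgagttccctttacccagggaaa
C5ar1 (chr7:16259289-16259588, minus strand): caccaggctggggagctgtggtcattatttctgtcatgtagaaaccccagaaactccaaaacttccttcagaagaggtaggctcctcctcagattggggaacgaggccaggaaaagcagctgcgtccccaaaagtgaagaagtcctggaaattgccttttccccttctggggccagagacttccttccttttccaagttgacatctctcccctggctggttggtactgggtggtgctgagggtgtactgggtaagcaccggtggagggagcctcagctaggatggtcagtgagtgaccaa
Itgam (chr7:128062390-128062689, plus strand): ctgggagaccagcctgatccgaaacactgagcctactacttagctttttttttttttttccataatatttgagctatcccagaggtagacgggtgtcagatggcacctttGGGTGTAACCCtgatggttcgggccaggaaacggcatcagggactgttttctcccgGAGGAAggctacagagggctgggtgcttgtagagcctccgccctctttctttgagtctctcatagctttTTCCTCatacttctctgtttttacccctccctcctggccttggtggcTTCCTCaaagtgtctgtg

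The NF-κB form was found in 3 of the 4 windows (C3, C3ar1 and Itgam), and it is present in 50.8% of the 32851 RefSeq promoters of the same length. In the C3 window it lay at bases -197 to -188 and, on the other strand, -196 to -187, at -33 to -24 on both strands, and at -10 to -1, with the first transcribed base counted as 0. The PU.1 core, named for a factor of myeloid cells, occurred 3 times in the Itgam window, at -84 to -79, -15 to -10 and 32 to 37, and in 0 of the other 3 windows. It is present in 28.3% of all promoters. The GAS form (8.30% of promoters) and the ISRE core (3.44%) matched 0 of the 4 windows. A match is a description of these letters, and its absence from a window says nothing of the factor.

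C3, the central component of the cascade (ENSMUSG00000024164.15, chromosome 17, 57203970 to 57228136, minus strand), was low in control tissue and rose in both tissues of α-IgLON5#1 mice. In PBS hippocampi it stood at 0.147, 0.326, 0.375, 0.738 and 0.942 CPM, and in pCtrl hippocampi at 0.196, 0.238, 0.470 and 1.62 CPM. In α-IgLON5#1 hippocampi it stood at 22.5, 24.1, 25.2 and 53.4 CPM, from 448 to 1086 counts. The 4 α-IgLON5#1 libraries lay above all controls, with mouse 8 the highest. In the cortex the levels were 0.134 to 0.378 CPM in PBS, 0.156, 0.316, 0.319, 0.333 and 1.06 CPM in pCtrl, and 7.19, 8.84, 16.6 and 33.0 CPM in α-IgLON5#1 mice. The highest control in each tissue was pCtrl mouse 15. The log2 fold change over pCtrl in the cortex was 5.10 ± 0.563 (SE, adjusted p = 4.95e-06), and over PBS 6.01 ± 0.607 (adjusted p = 1.03e-06). The control values rest on 4 to 86 counts per library, so the size of the fold is less certain than its direction, and its 95% interval in the hippocampus over pCtrl ran from 4.36 to 6.76. Without pCtrl mouse 15 in the tissue compared, the log2 fold change over pCtrl was 6.65 in the hippocampus (5.56 with all libraries) and 5.87 in the cortex. Without the cortex of α-IgLON5#1 mouse 8 it was 4.5 over pCtrl and 5.41 over PBS, and with only mice 8 to 17 it was 4.88 over pCtrl in the hippocampus, with C3 called in each case.

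C4b, the mouse C4 gene of the classical pathway (ENSMUSG00000073418.4, chromosome 17, 34728380 to 34743882, minus strand), was the most abundant of the 9 in CPM in both tissues of all groups by the group mean. In hippocampi it stood at 43.1, 50.6, 58.9, 66.9 and 67.9 CPM in PBS, at 44.7, 56.9, 68.1 and 70.7 CPM in pCtrl, and at 109, 147, 192 and 195 CPM in α-IgLON5#1 mice. The lowest α-IgLON5#1 hippocampus was above the highest control. In the cortex it stood at 20.6, 28.4, 30.0, 33.9 and 54.3 CPM in PBS, at 19.6, 25.8, 31.5, 36.7 and 43.1 CPM in pCtrl, and at 59.3, 89.7, 89.8 and 139 CPM in α-IgLON5#1 mice. The α-IgLON5#1 cortices were again all above the controls, and PBS mouse 38 came nearest to them. The log2 fold change over pCtrl was 1.42 ± 0.266 in the hippocampus (SE, adjusted p = 0.00123) and 1.58 ± 0.252 in the cortex (adjusted p = 0.000235). The near-identical copy C4a stood at 2.29 ± 0.332 CPM in pCtrl and 2.96 ± 0.10 CPM in α-IgLON5#1 mice (hippocampi, mean ± SD, n = 4 each, log2 fold change 0.37, adjusted p = 0.405). Reads shared by the copies could have been split or dropped in counting, and C4a had 32 to 164 counts per library.

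C2 and Cfb, which supply the proteases of the classical and the alternative C3 convertase, did not pass the test. C2 (ENSMUSG00000024371.14, chromosome 17, 34862604 to 34898265, minus strand) stood at 0.958 ± 0.119 CPM in pCtrl and 1.12 ± 0.362 CPM in α-IgLON5#1 animals (hippocampus, mean ± SD, n = 4 each), a log2 difference of 0.21 (95% interval -0.37 to 0.80, adjusted p = 0.712). In the cortex the difference was 0.34 (-0.22 to 0.89, adjusted p = 0.601), and a 2-fold rise lay outside both intervals. The α-IgLON5#1 hippocampi spread over 0.766 to 1.57 CPM and enclosed the pCtrl range of 0.833 to 1.10 CPM. Cfb (ENSMUSG00000090231.10, chromosome 17, 34856374 to 34862518, minus strand) was the lowest of the 9, with 1 to 21 counts per library. Its log2 difference over pCtrl was 0.58 in the hippocampus (-0.34 to 1.49, adjusted p = 0.487) and 0.70 in the cortex (-0.28 to 1.68, adjusted p = 0.525). At this depth a 2-fold rise of Cfb could not be told from none. In the cortex the 4 α-IgLON5#1 libraries (0.167 to 0.245 CPM) lay above the 5 PBS libraries (0.0672 to 0.126 CPM), as did 3.14% of all genes, yet the adjusted p was 0.571, and pCtrl mouse 11 was higher still at 0.426 CPM from 8 counts. Without that library the cortical difference over pCtrl was 1.46 (adjusted p = 0.0826). The gene model Gm20547 runs through both genes on the same strand and covers 1656 of 3872 exonic bases of C2 and 2246 of 2825 of Cfb. It was given 0 counts in all libraries, and reads in the shared exons may have been dropped, so the levels of C2 and Cfb may be too low.

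Serping1, the C1 inhibitor (ENSMUSG00000023224.12, chromosome 2, 84765387 to 84775444, minus strand), did not pass the test either, and its α-IgLON5#1 libraries fell on both sides of the pCtrl libraries. In hippocampi it stood at 7.37 to 17.4 CPM in PBS, at 15.1, 15.1, 15.8 and 18.4 CPM in pCtrl, and at 11.3, 12.1, 26.9 and 35.6 CPM in α-IgLON5#1 mice. Both α-IgLON5#1 mice 9 and 16 were below all pCtrl hippocampi and mice 8 and 17 above them. In the cortex α-IgLON5#1 mouse 9 stood at 4.55 CPM, below all controls, and the other mice at 15.8, 20.2 and 27.9 CPM, against 9.85 to 15.4 CPM in pCtrl. The log2 difference over pCtrl was 0.42 ± 0.386 in the hippocampus (SE, adjusted p = 0.57) and 0.45 ± 0.368 in the cortex (adjusted p = 0.615). The summed level of 10 meningeal and vascular fibroblast markers moved with this spread. In α-IgLON5#1 hippocampi it was 79.4 CPM in mouse 9, 183 in mouse 16, 384 in mouse 17 and 387 in mouse 8, in the same order as Serping1, against 284 to 349 CPM in pCtrl. In α-IgLON5#1 cortices it was 89.5 CPM in mouse 9 and 221 to 331 CPM in the other mice. There the order differed, since the sum was highest in mouse 17 and Serping1 in mouse 8. With this sum as a covariate, an alternative added after the values were seen, the log2 difference of Serping1 in the hippocampus was 0.75 ± 0.161 over pCtrl (adjusted p = 0.00457) and 0.86 ± 0.150 over PBS (adjusted p = 0.000347), under the fold threshold in both. In the cortex it was 0.30 over pCtrl (adjusted p = 0.318) and 0.41 over PBS (adjusted p = 0.211). The list was measured in the same libraries as Serping1, and its part in the spread was not otherwise tested.

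C3ar1, the receptor for the C3a fragment (ENSMUSG00000040552.8, chromosome 6, 122847138 to 122856161, minus strand), was even across controls. In hippocampi it stood at 1.67, 2.0, 2.17, 2.20 and 2.49 CPM in PBS, at 2.35, 2.68, 2.82 and 3.09 CPM in pCtrl, and at 8.20, 16.7, 16.8 and 21 CPM in α-IgLON5#1 mice. In the cortex it stood at 2.45 to 3.25 CPM in PBS, at 2.81 to 3.46 CPM in pCtrl, and at 6.45, 9.65, 22.5 and 29.4 CPM in α-IgLON5#1 mice. The α-IgLON5#1 libraries were above all controls of their tissue, and cortical mice 8 and 9 stood apart from mice 16 and 17. The log2 fold change over pCtrl was 2.51 ± 0.318 in the hippocampus (SE, adjusted p = 8.53e-06) and 2.45 ± 0.296 in the cortex (adjusted p = 1.12e-05).

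C5ar1, the receptor for C5a (ENSMUSG00000049130.6, chromosome 7, 16246743 to 16259540, minus strand), rose with 1 mouse far above the rest. In hippocampi it stood at 0.440 to 0.920 CPM in PBS, at 0.614, 0.736, 0.752 and 1.12 CPM in pCtrl, and at 1.44, 1.89, 2.37 and 5.81 CPM in α-IgLON5#1 mice. The cortical levels were 0.384 to 1.07 CPM in PBS, 0.532, 0.595, 0.865, 0.983 and 1.11 CPM in pCtrl, and 1.36, 1.61, 2.35 and 8.29 CPM in α-IgLON5#1 mice. Mouse 8 was the highest in both tissues, and the other α-IgLON5#1 libraries were still above all controls. The log2 fold change over pCtrl was 1.81 ± 0.481 in the hippocampus (SE, adjusted p = 0.0221) and 2.02 ± 0.451 in the cortex (adjusted p = 0.00804). Without the library of mouse 8 from the tissue compared, it was 1.22 in the hippocampus (adjusted p = 0.165) and 1.07 in the cortex (adjusted p = 0.206), and over PBS 1.57 (adjusted p = 0.0673) and 1.28 (adjusted p = 0.0928), so the call was lost in all 4 comparisons. With both libraries of mouse 8 left out together, the fold changes were nearly the same, and C5ar1 was called in the hippocampus over pCtrl (1.22, adjusted p = 0.022) and over PBS (1.57, adjusted p = 0.0012) and in the cortex over PBS (1.28, adjusted p = 0.0139) but not in the cortex over pCtrl (1.07, adjusted p = 0.06). The call over pCtrl in the hippocampus was also lost without the hippocampus of pCtrl mouse 10 (adjusted p = 0.0691). The summed level of 10 neutrophil markers, cells that carry C5aR1, was likewise highest in mouse 8, at 8.81 CPM in the hippocampus and 15.1 CPM in the cortex, against 1.35 to 3.24 and 0.938 to 2.44 CPM in the other α-IgLON5#1 mice and 2.06 to 6.00 and 1.30 to 5.13 CPM in pCtrl. Mouse 9, with the next highest C5ar1 in both tissues, had the lowest sum of the α-IgLON5#1 mice (1.35 and 0.938 CPM). Of the 6 neutrophil markers that passed the count filter, 0 were called in either tissue over pCtrl. Of all genes, 2.21% were called up in the hippocampus and 2.14% in the cortex, so a count of 0 is near the background. The part of neutrophils in the level of C5ar1 was not tested.

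Itgam and Itgb2, the chains of complement receptor 3, rose together. Itgam (ENSMUSG00000030786.18, chromosome 7, 128062640 to 128118491, plus strand) stood in hippocampi at 4.78 to 7.23 CPM in PBS, at 6.00, 6.17, 7.49 and 7.95 CPM in pCtrl, and at 10.7, 16.9, 17.2 and 21.9 CPM in α-IgLON5#1 mice. Cortical Itgam stood at 5.69 to 7.01 CPM in PBS, at 5.52 to 9.32 CPM in pCtrl, and at 10.6, 11.4, 19.1 and 20.9 CPM in α-IgLON5#1 mice. Both tissues were highest in mouse 9. Its log2 fold change over pCtrl was 1.26 ± 0.206 in the hippocampus (SE, adjusted p = 0.000252) and 1.18 ± 0.194 in the cortex (adjusted p = 0.000302). A second gene model, Gm49368, covers 3450 of 5024 exonic bases of Itgam on the same strand and was given 0 to 1 counts, so the level of Itgam may be too low.

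Itgb2 (ENSMUSG00000000290.13, chromosome 10, 77530252 to 77565708, plus strand) stood in hippocampi at 4.52 to 5.56 CPM in PBS, at 4.93, 5.31, 5.40 and 6.66 CPM in pCtrl, and at 14.7, 17.8, 18 and 25.7 CPM in α-IgLON5#1 mice. Its cortical levels were 4.56 to 6.31 CPM in PBS, 5.65 to 6.76 CPM in pCtrl, and 11.0, 11.2, 17 and 21 CPM in α-IgLON5#1 mice. Its log2 fold change over pCtrl was 1.77 ± 0.175 in the hippocampus (SE, adjusted p = 6.7e-07), the smallest adjusted p of the 9 there, and 1.24 ± 0.163 in the cortex (adjusted p = 3.1e-05). Per kilobase of exon, the ratio of Itgam to Itgb2 was 0.754 ± 0.0663 in pCtrl hippocampi and 0.529 ± 0.0649 in those given α-IgLON5#1 (mean ± SD, n = 4 each). The highest α-IgLON5#1 hippocampus stood at 0.580 and the lowest pCtrl hippocampus at 0.686, but 1 PBS hippocampus stood at 0.562. In the cortex the ratios were 0.650 ± 0.110 (n = 5) and 0.627 ± 0.0856 (n = 4). The β2 chain also pairs with the αL, αX and αD chains, and the share of Itgam among the 4 α chain transcripts per kilobase was 72.9% to 87.5% in pCtrl and 63.4% to 74.2% in α-IgLON5#1 hippocampi. In the cortex it was 73.7% to 85.8% and 57.4% to 77.5%, with overlap in both tissues. The ratio and the share rest on a level of Itgam that may be too low, so whether Itgam lay below Itgb2 cannot be told.

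Set side by side per kilobase of exon, the 9 transcripts spanned a wide range. In pCtrl hippocampi C4b led with 10.6 ± 2.09 CPM per kilobase (mean ± SD, n = 4), followed by Serping1 (6.92 ± 0.669), Itgb2 (1.83 ± 0.246), Itgam (1.37 ± 0.192), C3ar1 (0.635 ± 0.0719), C5ar1 (0.313 ± 0.0847), C2 (0.248 ± 0.0306), C3 (0.123 ± 0.13) and Cfb (0.0664 ± 0.0319). C5ar1 and C2, C2 and C3, and C3 and Cfb lay within a spread of each other. The levels of Itgam, C2 and Cfb were divided by all exonic bases, those shared with Gm49368 or Gm20547 included, so their places in this order may be too low. In α-IgLON5#1 hippocampi the order was C4b (28.2 ± 7.22), Serping1 (9.24 ± 5.10), Itgb2 (6.24 ± 1.54), C3 (6.09 ± 2.88), C3ar1 (3.64 ± 1.25), Itgam (3.32 ± 0.909), C5ar1 (1.12 ± 0.774), C2 (0.289 ± 0.0934) and Cfb (0.106 ± 0.0506). Here each neighbouring pair from Serping1 down to Itgam (Serping1 and Itgb2, Itgb2 and C3, C3 and C3ar1, C3ar1 and Itgam) lay within a spread. In the cortex C4b and Serping1 stood at 5.50 ± 1.61 and 5.41 ± 1.04 CPM per kilobase in pCtrl (n = 5) and at 16.6 ± 5.80 and 7.36 ± 4.19 in α-IgLON5#1 mice (n = 4).

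The α-IgLON5#1 mice differed among themselves in a way that was shared by transcripts. Over the 9 transcripts in both tissues, mouse 8 had the highest level of the 4 mice in 12 of 18 cases, mouse 9 in 5, mouse 17 in 1 and mouse 16 in 0. Mouse 8 was highest for C3, C4b, C5ar1 and Serping1 in both tissues, and mouse 9 for Itgam in both. Mouse 9 was lowest for Serping1 in both tissues. The summed levels of marker lists differed as well. In α-IgLON5#1 hippocampi the homeostatic microglia list stood at 568 CPM in mouse 9, 460 in mouse 16, 354 in mouse 17 and 339 in mouse 8, and the reactive astrocyte list at 1524 CPM in mouse 9, 1205 in mouse 16, 863 in mouse 17 and 1791 in mouse 8. With both libraries of mouse 8 left out, an alternative added after the values were seen, 6 of the 9 transcripts were still called in 3 of the 4 comparisons, and 5 in the cortex over pCtrl, where C5ar1 was lost. Over all genes, the DEGs of the cortex then fell from 438 to 244 over pCtrl and from 455 to 292 over PBS. With both libraries of mouse 9 left out, 6 of the 9 transcripts were called in all 4 comparisons.

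**Figure D3:**
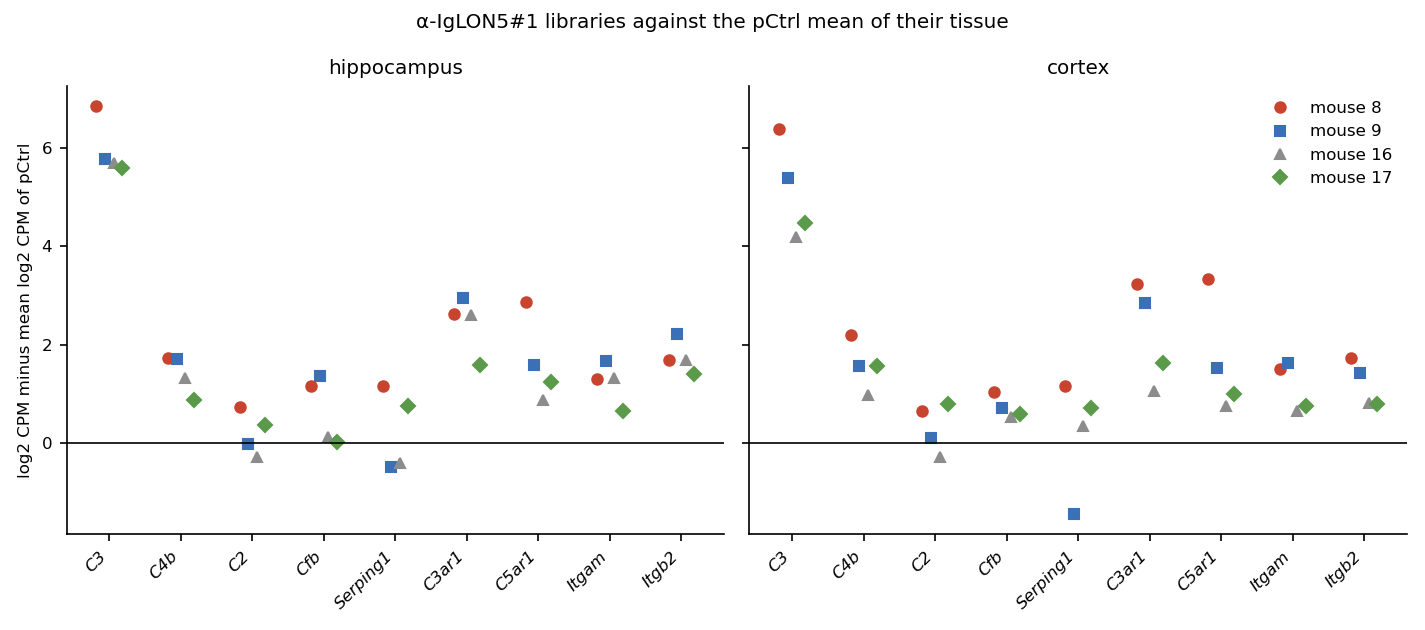
Log2 CPM of each complement transcript (x axis) in each α-IgLON5#1 library minus the mean log2 CPM of the pCtrl libraries of the same tissue (y axis), for hippocampus (left) and cortex (right). Each symbol is 1 mouse. Mouse 8 (red circles) is the highest for C3, C4b, C5ar1 and Serping1 in both panels, and mouse 9 (blue squares) is the lowest for Serping1.

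Across tissues, the level in PBS mice differed for 2 of the 9 transcripts. In PBS mice C4b was lower in the cortex than in the hippocampus, by 0.78 on the log2 scale (SE 0.239, adjusted p = 0.0153), and Cfb by 1.55 (SE 0.433, adjusted p = 0.00791), in a comparison in which 12.7% of all genes were lower and 14.1% higher in the cortex. The C4b groups overlapped at the edge, since PBS cortex 38 stood at 54.3 CPM. Without PBS cortex 14 the difference of C4b was -0.65 (adjusted p = 0.0542). The other 7 transcripts did not pass, with differences from -1.09 (C3, 95% interval -2.60 to 0.43) to 0.44 (C3ar1, -0.17 to 1.05).

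The response to α-IgLON5#1 was not shown to differ between tissues for any of the 9. As an interaction term, 0 of the 9 were called with pCtrl as the reference and 0 with PBS, and of all genes 0% were called with pCtrl and 0.00493% (all downward) with PBS. DESeq2 also called 0 of the 9 in both. At an unadjusted p under 0.05, edgeR passed 1 of the 9 with pCtrl (10.6% of all genes), Itgb2, whose log2 fold change was 0.53 lower in the cortex (95% interval -1.01 to -0.04, adjusted p = 0.426), and 0 with PBS (3.32%). For C3 the difference between tissues was -0.46, with an interval of -2.14 to 1.22, and for C5ar1 0.21 (-1.15 to 1.57). These intervals are wide and allow differences of more than 2-fold in either direction. They were narrower for Itgam (-0.66 to 0.50), where they do not.

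Microglia are known to express Itgam, Itgb2, C3ar1 and C5ar1, so their levels were also set against the summed CPM of 10 homeostatic microglia genes. Of these 10, 0 were called over pCtrl in either tissue, and without the fold threshold 5 rose in the hippocampus, as did 4.23% of all genes, and 0 in the cortex (3.01%). Their sum was 276 to 318 CPM in pCtrl and 339 to 568 CPM in α-IgLON5#1 hippocampi, and 281 to 346 and 319 to 364 CPM in the cortex. Relative to this sum, the mean log2 difference between α-IgLON5#1 and pCtrl was 1.94 for C3ar1, 1.26 for Itgb2, 1.15 for C5ar1 and 0.74 for Itgam in the hippocampus, and 2.04, 1.03, 1.5 and 0.99 in the cortex. On this scale the lowest α-IgLON5#1 library was above the highest pCtrl library for these 4 transcripts, as did 1.68% of all genes in the hippocampus and 1.87% in the cortex, except for C5ar1 in the hippocampus, where the groups overlapped. C3 stood at 5.49 and 4.96, and C4b at 0.91 and 1.43, on the same scale. C2, Cfb and Serping1 overlapped in both tissues, with differences from -0.30 to 0.57. The list is a reference for the amount of microglial RNA only so far as its own genes do not change with activation, which was not tested. Without Cx3cr1, P2ry12 and Tmem119 in the list, the differences for Itgam were 0.74 and 0.99.

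**Figure D4:**
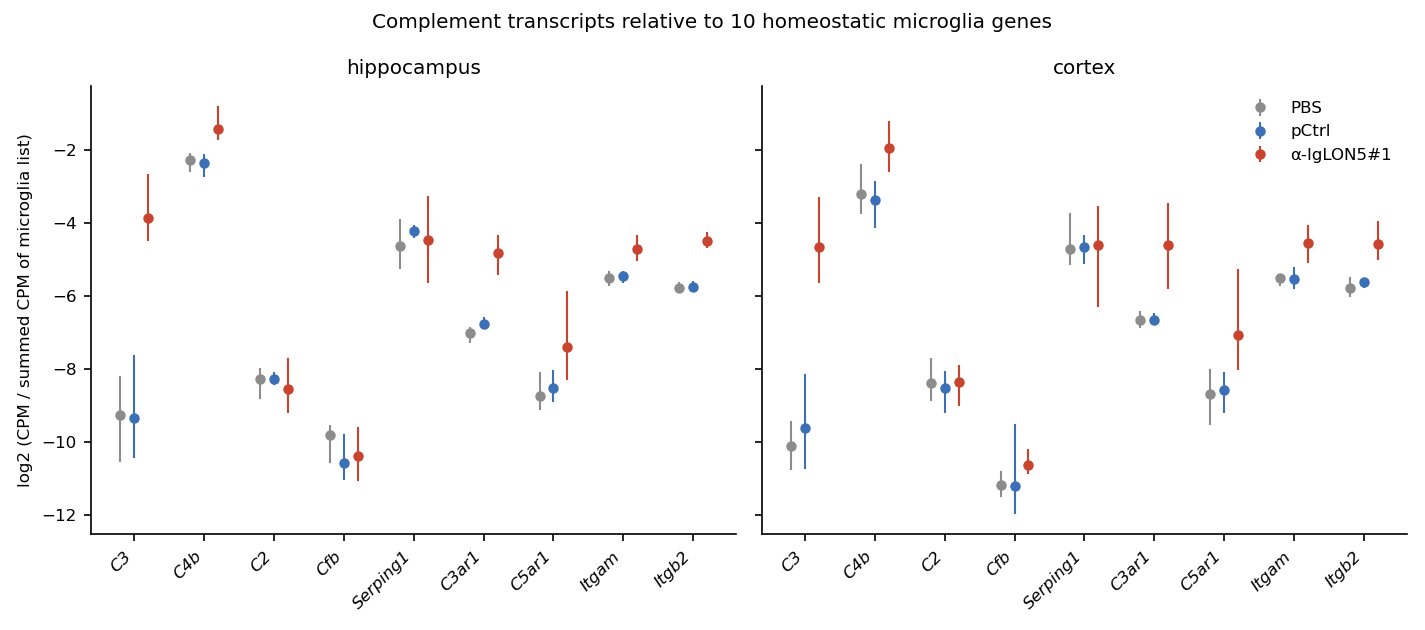
Log2 of the CPM of each complement transcript (x axis) over the summed CPM of 10 homeostatic microglia genes (y axis), for hippocampus (left) and cortex (right), with points at group means and lines from the lowest to the highest library (PBS grey, pCtrl blue, α-IgLON5#1 red). The α-IgLON5#1 range of C3, C4b, C3ar1, Itgam and Itgb2 lies above that of pCtrl in both tissues, and C5ar1 overlaps in the hippocampus.

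Markers of other cells that carry these transcripts moved as well. Of 10 markers of monocytes and border macrophages, 2 rose and 1 fell in the hippocampus over pCtrl, and 4 rose and 1 fell in the cortex. For these and the following marker lists, the shares of all genes called up and down over pCtrl were 2.21% and 0.237% in the hippocampus and 2.14% and 0.0247% in the cortex. The monocyte and macrophage sum ran from 8.56 to 53.9 CPM in α-IgLON5#1 hippocampi and from 23.4 to 33.0 CPM in pCtrl, and from 13.3 to 70.6 and 18.2 to 29.4 CPM in the cortex, with mouse 9 the lowest and mouse 8 the highest in both tissues. Of 10 reactive astrocyte markers, 7 rose in the hippocampus and 6 in the cortex, and their sum was 863 to 1791 CPM in α-IgLON5#1 against 467 to 613 CPM in pCtrl hippocampi, and 525 to 1705 against 251 to 410 CPM in the cortex. Of 9 tested B and plasma cell markers, 6 and 4 rose. Of 10 NK and T cell markers, cells that carry Itgb2, 3 were tested. Cd4 rose in the hippocampus (log2 fold change 1.67, adjusted p = 0.0128) and stood at 1.07 in the cortex (adjusted p = 0.128), Cd3g stood at 1.36 in the hippocampus (adjusted p = 0.138) and rose in the cortex (3.41, adjusted p = 0.00683), and Trbc2 was called in neither. The sum of the NK and T cell markers was 1.92 to 5.22 CPM in α-IgLON5#1 and 0.908 to 1.77 CPM in pCtrl hippocampi, and 6.46 to 8.12 against 5.09 to 7.35 CPM in the cortex. The part of these cells in the levels of the 9 transcripts was not tested.

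The other complement genes were taken from 7 lists of the pathway, 54 genes of which 39 passed the count filter. Over pCtrl, 8 rose and 1 fell in the hippocampus, where 2.21% and 0.237% of all genes were called up and down, and 5 rose and 0 fell in the cortex, where 2.14% and 0.0247% were. Their median log2 fold change was 0.16 and 0.26. The lists were written with earlier results of these libraries known, and are not independent evidence of a direction.

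Of the 6 classical initiation genes, 4 rose in the hippocampus and 2 in the cortex (all genes 2.21% and 2.14%). C1qb, a chain of C1q, had a log2 fold change of 1.59 in the hippocampus (SE 0.14, adjusted p = 2.01e-07) and 1.14 in the cortex (adjusted p = 8.81e-06), and C1qa one of 1.61 and 1.28. C1qc rose by 1.49 in the hippocampus (adjusted p = 8.44e-07) and stood at 0.90 in the cortex (adjusted p = 0.000213), under the fold threshold. C1ra, which encodes a C1r protease, rose from 1.22 ± 0.345 to 4.04 ± 2.88 CPM in the hippocampus (mean ± SD, n = 4 each, log2 fold change 1.72, adjusted p = 0.00497), and stood at 0.82 in the cortex (adjusted p = 0.225). Without the hippocampus of α-IgLON5#1 mouse 8 the hippocampal call was lost (1.18, adjusted p = 0.053), and with both libraries of mouse 8 left out it was kept (1.18, adjusted p = 0.0187). C1s1, a C1s gene, stood at log2 fold changes of 1.29 (adjusted p = 0.069) and 1.27 (adjusted p = 0.112), and was not called.

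Of 15 tested regulators besides Serping1, 0 were called in either tissue over pCtrl, where 2.21% and 2.14% of all genes were called up, so a count of 0 is near the background. Their log2 fold changes had medians of -0.01 and 0.06. They include the membrane regulators Cd55 (hippocampal log2 fold change 0.05, adjusted p = 0.923) and Cd59a (-0.01, adjusted p = 0.984). A difference between regulators and the other genes was not tested. Of 4 tested lectin pathway genes, 0 were called, and Cfp (properdin, which stabilizes the alternative convertase) stood at 0.45 in the hippocampus (adjusted p = 0.103) and 0.37 in the cortex (adjusted p = 0.238).

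The terminal pathway was hardly expressed, with 3 of 7 genes tested. Hc, which encodes C5, was called lower in α-IgLON5#1 than in pCtrl hippocampi, by 2.51 on the log2 scale (SE 0.593, adjusted p = 0.0102). Its level was 0.467 to 2.49 CPM in pCtrl, 0.115 to 0.283 CPM in PBS and 0.0860 to 0.490 CPM in α-IgLON5#1 hippocampi, from 2 to 122 counts. Hc stood 2.58 higher on the log2 scale in pCtrl than in PBS hippocampi (adjusted p = 0.0433), and this call was lost with only the groups compared and without the hippocampus of PBS mouse 32, PBS mouse 74, pCtrl mouse 10 or pCtrl mouse 37. The α-IgLON5#1 and PBS hippocampi differed by 0.08 (adjusted p = 0.982), and in the cortex the difference over pCtrl was 1.38 (adjusted p = 0.154). Without the hippocampus of pCtrl mouse 10 the call against pCtrl was lost (adjusted p = 0.0589).

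Of 5 tested other receptors, Itgax (αX, the partner of β2 in complement receptor 4) rose in both tissues, from 0.538 ± 0.152 to 3.30 ± 1.19 CPM in the hippocampus (mean ± SD, n = 4 each, log2 fold change 2.59, adjusted p = 5.42e-06) and by 3.10 in the cortex (adjusted p = 3.64e-06). Of the 5 β2 integrin partners and activators, Itgal (αL) rose by 1.97 (adjusted p = 0.00308) and 1.91 (adjusted p = 0.00224), and Icam1, a ligand of β2 integrins, by 1.78 (adjusted p = 0.00587) and 2.09 (adjusted p = 0.000863). Without the hippocampus of mouse 8 the call of Icam1 in the hippocampus was lost (1.18, adjusted p = 0.0664), and with both of its libraries left out it was kept (1.18, adjusted p = 0.000807). Fermt3, a kindlin that activates integrins in blood cells, rose by 1.29 in the hippocampus (adjusted p = 6.13e-05) and stood at 0.96 in the cortex (adjusted p = 0.00119), under the fold threshold. Itgad stood at 0.77 and -0.07 and was not called.

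Several of these calls over pCtrl depended on which libraries were fitted. With only the groups compared, the calls of C1ra (log2 fold change 1.71, adjusted p = 0.112), Hc (-2.51, adjusted p = 0.0882) and Icam1 (1.78, adjusted p = 0.0613) in the hippocampus and of Itgal in the cortex (1.93, adjusted p = 0.0583) were lost at nearly the same fold changes. With only mice 8 to 17, C1qa, C1qb, C1qc and Itgax were still called in the hippocampus, and C1ra (1.84, adjusted p = 0.222), Hc (-2.84, adjusted p = 0.0722), Itgal (1.98, adjusted p = 0.208), Fermt3 (1.24, adjusted p = 0.104) and Icam1 (1.79, adjusted p = 0.291) were not. In the cortex Itgax was then still called, and C1qa (1.16) and C1qb (1.06, adjusted p = 0.0601 each), Itgal (1.81, adjusted p = 0.186) and Icam1 (2.06, adjusted p = 0.182) were not.

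**Figure D5:**
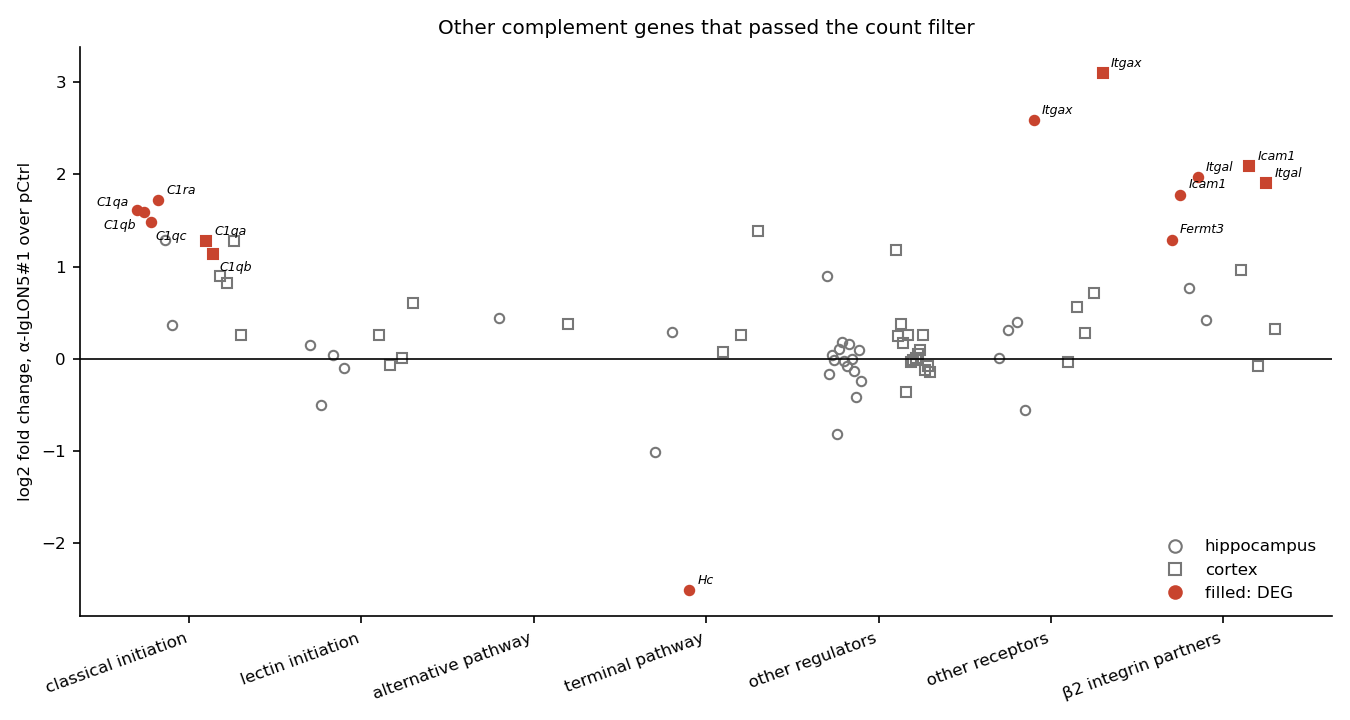
Log2 fold changes of α-IgLON5#1 over pCtrl (y axis) for the 39 tested genes of 7 complement lists (x axis), circles for hippocampus and squares for cortex, filled red for DEGs, which are named. DEGs lie in the classical initiation, other receptor and β2 integrin lists and, with Hc below 0, in the terminal pathway.

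The genes whose levels followed each transcript most closely over the 27 libraries differed between the 9. These are Pearson correlations of log2 CPM over libraries that share groups, tissues and mice, given as a description over 15238 genes compared (15239 for C2 and Cfb). C4b was nearest to Gfap (r = 0.968), the intermediate filament of astrocytes, then Ostf1 (0.930) and Samhd1 (0.928). C3 was nearest to Tmem176b (0.959), Csf3r (0.953) and Ptprc (0.952). C3ar1 was nearest to Hcls1 (0.985), Adgre1 (0.980) and Pik3ap1 (0.978), Itgam to Rac2 (0.968), Hcls1 (0.966) and Nckap1l (0.964), and Itgb2 to C1qb (0.980), B2m (0.979) and Cd52 (0.978). C5ar1 was nearest to Nfkb2 (0.944), a subunit of NF-κB, Acod1 (0.937) and Ms4a6d (0.936). Genes near Serping1 included Apod (0.952) and Col3a1 (0.941), a collagen gene that is also in the fibroblast list. C2 (Trim12a, 0.752) and Cfb (Nectin4, 0.822) had weaker nearest neighbours, at 10 to 81 and 1 to 21 counts per library. Among the 9, the pairs C3ar1 and Itgb2 (0.969), Itgam and Itgb2 (0.954) and C3ar1 and Itgam (0.949) were the closest, C3 and C4b stood at 0.842, and Serping1 stood at 0.13 with Itgam.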

How the data were processed

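RNA from 27 pieces of contralateral hippocampus and cortex of 14 mice was sequenced as paired-end, strand-marking mRNA libraries. The authors aligned the reads to GRCm38 with STAR and deposited raw counts per Ensembl gene (55487 rows) without normalization. The counting program, its annotation and its strand setting are not given in the sources used here. Symbols, positions and exon lengths were taken from GENCODE M21 (55227 rows matched). Libraries were mapped to groups by their titles, 0 sample columns were left unmapped, and 48 pairs of libraries of the same group all differed by more than counting noise (chi-square per degree of freedom at least 4.44).

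Genes with 10 or more counts in 4 or more libraries were fitted over all 6 groups with edgeR 4.0.16 (TMM, quasi-likelihood F test, R 4.3.3, limma 3.58.1). DEGs had an adjusted p below 0.05 and changed more than 2-fold, and tissue and interaction contrasts had no fold threshold. Levels are CPM on TMM effective library sizes, and log2 CPM uses a prior count of 1. Intervals are 95%. The depth of 19385642 to 58550621 counts limits precision for C3 in controls and for Cfb. The fit was tested on simulated data, in which each library was drawn without an effect of the mouse. That test therefore does not bear on the sharing of mice between tissues. Alternatives were DESeq2 1.42.0, RLE size factors, other count filters, no fold threshold, only the groups compared, only animals 8 to 17, each library left out, and the animal as a block for contrasts between tissues. Over all genes, the deviations from group means of both libraries of a mouse correlated at -0.0518 to 0.459 (median 0.192, 13 mice, pairing by the mouse number in the titles), and treatment groups share no mice. These correlations were highest in the α-IgLON5#1 mice, at 0.459 (mouse 8), 0.430 (mouse 9), 0.368 (mouse 17) and 0.274 (mouse 16). Named with values are all 9 genes and, of the listed complement genes, those called over pCtrl or standing for their list. The 3 nearest genes by Pearson correlation were taken from genes with a mean of at least 1 CPM. A gene that these rules also name is not reported here. The 9 genes and all lists were chosen with earlier results of these data known.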

Additional observations from a re-analysis of the deposited data

Results flagged for a closer look

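In 6 of the 54 combinations of transcript, tissue and treatment, 1 library lay far from the others of its group by Dixon's ratio, the gap to the nearest library divided by the range. Chance alone flags about 1 in 20 groups. C3 in the α-IgLON5#1 hippocampus was highest in mouse 8, with 53.4 CPM against 25.2 CPM in the next library (ratio 0.911). C5ar1 in the α-IgLON5#1 cortex was also highest in mouse 8, with 8.29 CPM against 2.35 CPM (ratio 0.857). Among controls, C3 in the pCtrl cortex was highest in mouse 15, with 1.06 CPM against 0.333 CPM (ratio 0.805). Serping1 in the PBS cortex was highest in mouse 38, with 21.4 CPM against 11.7 CPM (ratio 0.759). Cfb stood apart in the pCtrl cortex of mouse 11, with 0.426 CPM from 8 counts against 0.0939 CPM (ratio 0.85), and was lowest in the PBS hippocampus of mouse 14, with 0.171 CPM from 5 counts against 0.297 CPM (ratio 0.726).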

How the results depend on the processing

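The same 6 transcripts were called over each control with DESeq2, with RLE size factors, with no count filter, without the fold threshold and with the fibroblast covariate, and 5 with at least 10 counts in every library, where C3 was not tested. C5ar1 was lost with only the groups compared at nearly the same fold changes (1.8, adjusted p = 0.0663 in the hippocampus over pCtrl, 2.04, adjusted p = 0.0921 in the cortex over pCtrl and 2.25, adjusted p = 0.0815 in the cortex over PBS) and without the libraries named in the report. With only animals 8 to 17, which leaves 2 pCtrl mice in the hippocampus and 3 in the cortex, Cfb was not tested, and 2 transcripts were called in the hippocampus (C3 and Itgb2) and 1 in the cortex (C3). There C4b stood at 1.36 (adjusted p = 0.118) and 1.78 (adjusted p = 0.057), C3ar1 at 2.59 (adjusted p = 0.0876) and 2.48 (adjusted p = 0.0717), and cortical Itgb2 at 1.18 (adjusted p = 0.0799). C5ar1 stood at 1.92 (adjusted p = 0.324) and 2.14 (adjusted p = 0.221), and Itgam at 1.23 (adjusted p = 0.153) and 1.07 (adjusted p = 0.150). Single libraries left out moved C3 over pCtrl within 5.18 to 6.65 in the hippocampus and 4.5 to 5.87 in the cortex.

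The count of transcripts that differed between PBS tissues was 1 with at least 10 counts in every library, where Cfb was not tested, and ran from 1 to 2 with single libraries left out. With the animal as a replicate block it was 2, and the interactions stayed at 0 and 0 called, so the block changed no call. Directions turned only in differences that were never called. For C2 between PBS tissues (0.0042) the value was -0.0012 with no count filter, -0.0145 with at least 10 counts in every library, -0.0055 with the block and -0.18 to 0.127 with single libraries left out. For Serping1 (0.0218) it was -0.0039 with the block and -0.30 to 0.201, and for Itgam (0.057) -0.0223 to 0.12, with single libraries left out. Cfb in the hippocampus over PBS (-0.0754) ranged from -0.328 to 0.143. The interactions with pCtrl ranged from -1.55 to 0.313 for C3, from -0.729 to 0.799 for C5ar1 (-0.0752 with the block) and from -0.253 to 0.082 for Itgam (0.0243 with the block). Of 465 alternatives to called values 446 were called as well, and of 445 to uncalled values 444 were not, the exception being C3ar1 between PBS tissues with only those groups (0.44, adjusted p = 0.0283). The cause of these shifts was not tested.

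Over all genes the counts moved more. In the hippocampus over pCtrl 496 DEGs became 1420 without the fold threshold, 229 with at least 10 counts in every library, 255 with only the groups compared and 48 with animals 8 to 17. In the cortex over pCtrl 438 became 701, 197, 220 and 9, and 217 without the cortex of α-IgLON5#1 mouse 8. Over PBS, 541 in the hippocampus became 869 without the fold threshold and 248 with at least 10 counts in every library, and 455 in the cortex became 216 with that filter, 237 with only the groups compared and 263 without the cortex of mouse 8. In pCtrl hippocampi over PBS, 13 became 71 with DESeq2 and 0 to 127 with single libraries left out, and for the interaction with pCtrl 0 became 36 with DESeq2. Low counts limit the precision for Cfb (1 to 21 per library) and for C3 in controls (4 to 86).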
